A study of Homo sapiens with 4 samples.

Results

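Acetylated histone regions on chromosome 15 between 25 and 35 Mb, in the part of the long arm that carries ARHGAP11B, GREM1 and FMN1, were described in T98G cells, an established human glioblastoma line. Cells carried a lentiviral shRNA against RBBP4 (shRBBP4), and controls carried a lentiviral NT shRNA (shNT). Both populations were at passage 4, and no other agent or allele distinguishes them in the labels. Chromatin immunoprecipitation and sequencing of histone H3 acetylated at lysine 9 (H3K9ac) gave 1 list of called regions per shRNA, so no difference has a replicate check. An input library of each population belongs to the study and was not analysed here, nor was the level of RBBP4. The members are all regions of both lists that overlap the window, 147 of 39303 in shRBBP4 and 45 of 26828 in shNT. The window and its genes were chosen by the number and strength of shRBBP4 regions, so these counts are a description and carry no test. Positions are on hg19 and count from 1.

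H3K9ac marks active promoters and enhancers, where it is set by acetyltransferases and removed by histone deacetylases. RBBP4 binds histones and is a shared subunit of several chromatin complexes, deacetylase complexes among them. ARHGAP11B is a human-specific partial copy of ARHGAP11A, and it is known for increasing progenitor cells of the developing neocortex. GREM1 encodes Gremlin 1, a secreted antagonist of bone morphogenetic proteins. FMN1 encodes formin 1, which nucleates actin filaments. GREM1 and FMN1 are neighbours, and in the mouse enhancers that act on Grem1 in the limb lie within Fmn1.

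The bases before the annotated starts of these genes are shown because strong regions lie at the start of ARHGAP11B. By contrast, the gene ends taken as hg19 starts of GREM1 and FMN1, 33010205 and 33486934, carry no called region. Each line is the 250 bases upstream of a start, 5′ to 3′ in the direction of transcription, from RefSeq on GRCh38.p14, with CpG dinucleotides in capitals. RefSeq lists 2 starts for GREM1, of which the first is shown, and 2 for FMN1. Where the RefSeq starts lie on hg19 was not established here, so whether a called region lies at each of them was not tested.
ARHGAP11B: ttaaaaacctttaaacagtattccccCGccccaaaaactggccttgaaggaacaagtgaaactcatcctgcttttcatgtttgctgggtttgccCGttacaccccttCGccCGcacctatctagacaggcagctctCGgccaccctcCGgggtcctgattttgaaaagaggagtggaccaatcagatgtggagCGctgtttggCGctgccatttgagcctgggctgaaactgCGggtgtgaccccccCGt
GREM1: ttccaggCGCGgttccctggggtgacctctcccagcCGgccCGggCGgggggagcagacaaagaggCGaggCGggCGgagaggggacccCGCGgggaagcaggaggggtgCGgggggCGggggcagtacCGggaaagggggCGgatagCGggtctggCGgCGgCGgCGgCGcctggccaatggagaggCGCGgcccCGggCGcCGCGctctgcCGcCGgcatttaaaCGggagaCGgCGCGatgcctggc
FMN1, first start: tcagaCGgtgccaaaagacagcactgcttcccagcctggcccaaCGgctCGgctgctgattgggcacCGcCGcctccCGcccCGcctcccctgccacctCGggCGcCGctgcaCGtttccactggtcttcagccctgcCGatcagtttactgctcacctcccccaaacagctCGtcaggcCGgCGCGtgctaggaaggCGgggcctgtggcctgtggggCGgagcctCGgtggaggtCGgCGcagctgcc
FMN1, second start: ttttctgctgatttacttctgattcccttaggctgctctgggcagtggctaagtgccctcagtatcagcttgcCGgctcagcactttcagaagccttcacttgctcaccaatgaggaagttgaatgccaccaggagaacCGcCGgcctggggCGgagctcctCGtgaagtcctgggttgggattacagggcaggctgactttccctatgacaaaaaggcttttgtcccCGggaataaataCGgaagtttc

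The windows differed in CpG content, and those of GREM1 and FMN1 included both more and fewer CpG than that of ARHGAP11B. GREM1 had 32 CpG and 76.8% GC at its first start, and 23 CpG at its other start. ARHGAP11B had 10 CpG and 54.0% GC. FMN1 had 21 CpG at the first start and 7 at the second. The median of 35116 RefSeq promoter windows of the same length was 11 CpG, and 90.5% of them held fewer CpG than the first GREM1 window. The letters TATAAA, on either strand, were in none of the 5 windows of these genes and in 10.7% of all windows. CCAAT on either strand was found in 4 of the 5 and in 32.0% of all windows, and the second GREM1 window lacked it. GGGCGG on either strand was found in the same 4 and in 42.6% of all windows. None of the 3 motifs contains another, and a match describes the sequence only.

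ARHGAP11B carried the highest-scoring H3K9ac region of the window in shRBBP4 cells. Within 10 kb of its start at position 30916697, shRBBP4 had 5 regions covering 3.14 kb and shNT had 3 covering 0.621 kb. The shRBBP4 regions ran from 30916584 to 30916970, 30917101 to 30917479, 30917687 to 30918180, 30918411 to 30920150 and 30920744 to 30920883. The authors' caller gave each region a score of unstated scale, used here only to rank a region within its own list. The shRBBP4 percentiles, in that order, were 99.0, 99.8, 99.99, 99.9 and 67.9. The shNT regions, at 30917762 to 30917888, 30918060 to 30918198 and 30918917 to 30919271, stood at percentiles 60.7, 33.8 and 80.8 of their list. Thus 4 of 5 shRBBP4 regions were above percentile 90 and none of the 3 shNT regions was. In the lists as a whole 9.75% of shRBBP4 and 10.1% of shNT regions stood above percentile 90.

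The shNT regions lay within the outline of the shRBBP4 regions. All 3 shNT regions overlapped the 494-bp or the 1740-bp shRBBP4 region. The region across the gene's start and the next, which begins 0.404 kb downstream, had no overlapping shNT region, although an shNT region lay within 1 kb of each. The widest region there was 1740 bp in shRBBP4, against 355 bp in shNT. Percentiles come from lists of different length and do not measure a change in acetylation. ARHGAP11B arose as a partial copy of ARHGAP11A, and how reads from such copies were assigned is not given in the sources used here. The RefSeq promoter windows of the 2 genes shared 0 runs of 20 bases. These windows precede each annotated start and need not cover matching bases of the copies, and the sequence under the called regions was not compared. How signal was split between the copies is therefore uncertain.

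**Figure D1:**
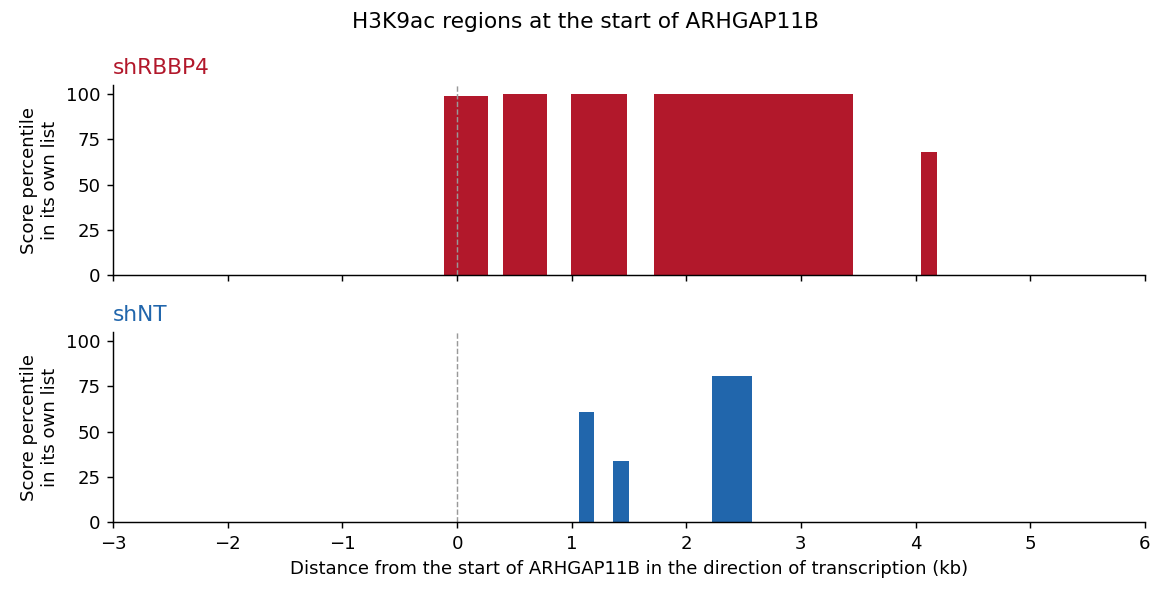
H3K9ac regions around the start of ARHGAP11B (distance in kb, dashed line at the start) in shRBBP4 (top) and shNT (bottom). Each bar spans 1 region and its height is the score percentile in the region's own list; 4 of 5 shRBBP4 bars stand above 90, and the highest of 3 shNT bars is at 80.8.

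A second strong cluster of similar layout lay between ARHGAP11B and GREM1, from 32906105 to 32910553. RefSeq gene order places ARHGAP11A in this interval, among FAN1, MTMR10, TRPM1, KLF13, OTUD7A, CHRNA7 and SCG5, but no hg19 position of these genes was at hand, so the cluster is named by position. It held 6 regions in shRBBP4, led by one of 1832 bp from 32907706 to 32909537 at percentile 99.9, and 4 regions in shNT, of which the strongest, from 32907157 to 32907315, stood at percentile 90.3. The shRBBP4 region at 32907074 to 32907308 also reached percentile 99.9, and that from 32906520 to 32906867, at percentile 95.8, overlapped no shNT region. Both clusters thus had a wide region beside narrower strong ones in shRBBP4, and pieces of at most 363 bp in shNT.

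Over the whole interval between ARHGAP11B and GREM1, shRBBP4 had 35 regions covering 15.7 kb and shNT had 10 covering 2.96 kb. Of the 35, 28 overlapped no shNT region (80.0%), while all 10 shNT regions overlapped an shRBBP4 region. In the whole lists, 49.96% of shRBBP4 and 23.0% of shNT regions overlapped none of the other library. Above percentile 90 were 10 of the 35 shRBBP4 regions and 1 of the 10 shNT regions, against 9.75% and 10.1% of the whole lists. The median percentile was nevertheless lower in shRBBP4, 44.3 against 58.4 in shNT. A stretch from 32961110 to 32963780, made of shRBBP4 regions of 1378 and 1065 bp at percentiles 94.4 and 94.1, met shNT regions of 123 bp each at percentiles 37.7 and 12.2. A pair from 31726265 to 31727174 and from 31727279 to 31727668, at percentiles 92.5 and 93.5 in shRBBP4, had no shNT region within 1 kb.

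GREM1 itself carried almost no called H3K9ac in either library. Within 10 kb of the gene (33010205 to 33026870) shRBBP4 had 1 region, from 33025217 to 33025502, and shNT had none. This region stood at percentile 13.9 and lay 15.0 kb downstream of the start, inside the gene. The nearest upstream shRBBP4 region, from 32999566 to 32999692 at percentile 12.9, was 10.5 kb from the start and just outside the margin. In shNT the nearest regions were 46.4 kb upstream and 121 kb downstream. No region was called at 33010205, the GREM1 start used here, in shRBBP4 or in shNT cells, although the gene lies inside the block. With the depth unknown this does not show that acetylation is absent.

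FMN1 held the greatest number of shRBBP4 regions in the window. Within 10 kb of the gene (33057746 to 33486934, on the minus strand) shRBBP4 had 55 regions covering 22.9 kb and shNT had 4 covering 0.758 kb. Of the 55, 51 overlapped no shNT region (92.7%) and 45 had none within 1 kb, against 49.96% and 25.7% of all shRBBP4 regions. Inside the gene were 52 shRBBP4 and 3 shNT regions, which covered 5.17% and 0.124% of its 429 kb. The shRBBP4 regions were of middling strength, with a median percentile of 55.9. Of the 55, 5 stood above percentile 90, near the 9.75% of all shRBBP4 regions that did. The 4 shNT regions stood at percentiles 42.0, 29.4, 12.2 and 4.36.

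**Figure D2:**
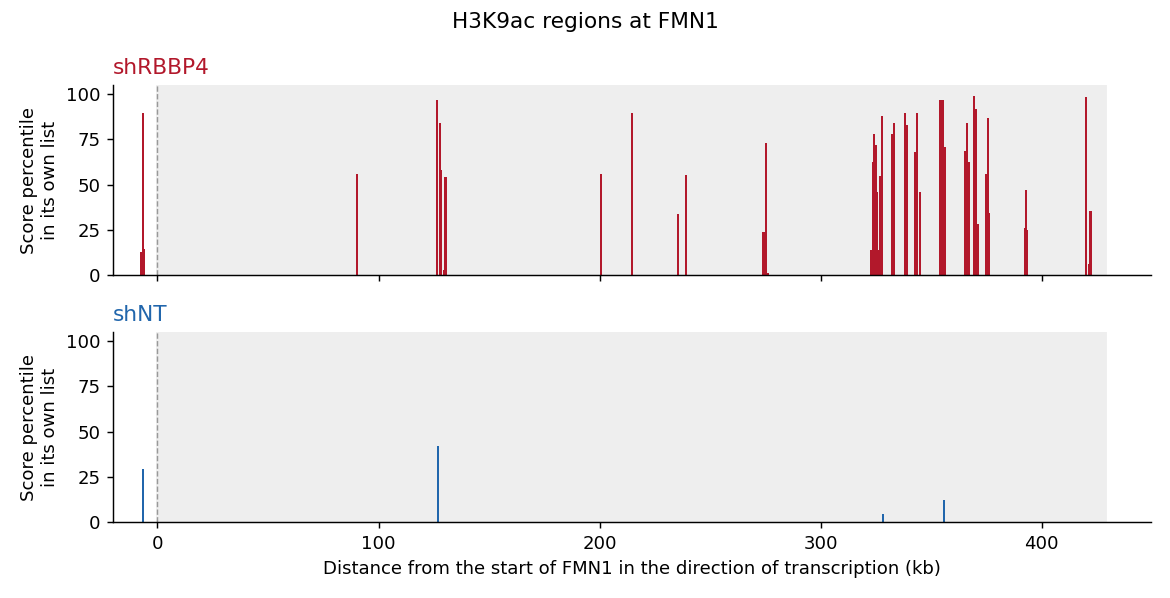
H3K9ac regions along FMN1 (grey band), by distance in kb from its start in the direction of transcription, in shRBBP4 (top) and shNT (bottom). Each bar is 1 region, narrow ones widened to be visible, and its height is the score percentile in its own list; 37 of the 52 shRBBP4 regions and 2 of the 3 shNT regions inside the gene lie more than 300 kb from the start.

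The acetylated stretches of FMN1 lay mostly toward its 3′ end, with 37 of the 52 shRBBP4 regions inside the gene more than 300 kb from the start. When neighbours less than about 5 kb apart were joined, the regions of both lists formed 12 stretches. The longest, from 33141703 to 33164521, spanned 22.8 kb and held 18 shRBBP4 regions covering 8.09 kb and 1 shNT region of 256 bp. The next, from 33110915 to 33122316, spanned 11.4 kb and held 10 shRBBP4 regions and no shNT region. It includes the strongest shRBBP4 region of the gene, from 33117308 to 33118243 at percentile 98.8. A stretch from 33130147 to 33133403 held the widest region of the window, 2037 bp from 33131367 to 33133403 at percentile 96.5 in shRBBP4, against 1 shNT region of 147 bp at percentile 12.2. Farthest from the start, 420 kb into the gene, a stretch from 33065189 to 33067366 held 4 shRBBP4 regions, the strongest from 33066606 to 33067192 at percentile 98.4, and no shNT region.

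Nearer to the start, regions of both libraries coincided at 2 places. The first lay upstream of FMN1, where shRBBP4 had 3 regions from 33493278 to 33494627, the strongest at percentile 89.6, and shNT had 1 from 33493811 to 33494034 at percentile 29.4. No region of either list lay closer to the FMN1 start used here, 33486934, than 6.34 kb in shRBBP4 and 6.88 kb in shNT. Whether a region lies at either RefSeq start of FMN1 was not tested. The second place lay 126 to 130 kb into the gene, from 33356586 to 33361012. There 6 shRBBP4 regions covered 3.73 kb and reached percentile 96.9, and 1 shNT region of 131 bp stood at percentile 42.0. All 4 shNT regions at FMN1 thus overlapped a stronger-ranked shRBBP4 region.

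**Figure D3:**
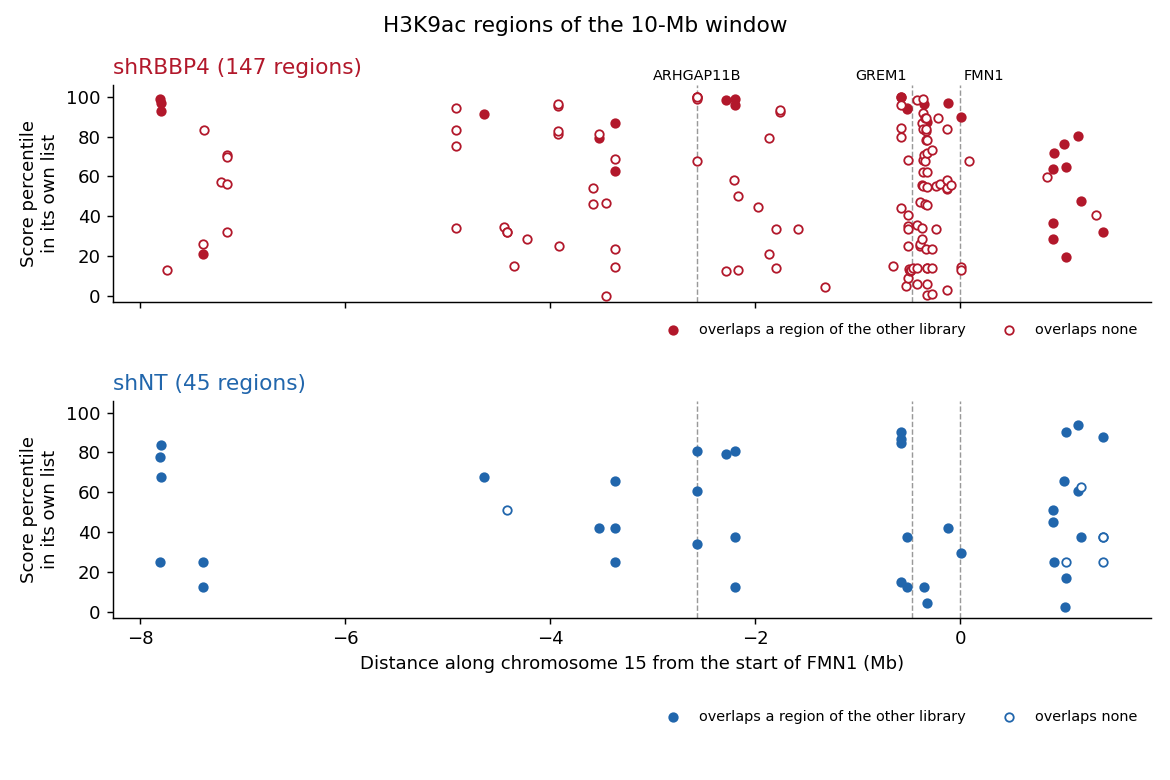
All regions of the window in shRBBP4 (top, 147) and shNT (bottom, 45), by distance in Mb from the start of FMN1 and by score percentile in their own list. Filled points overlap a region of the other library, open points overlap none, and dashed lines mark the starts of ARHGAP11B, GREM1 and FMN1. Open points make up 116 of 147 in shRBBP4 and 6 of 45 in shNT, against 49.96% and 23.0% of the whole lists.

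The rest of the window fell into a part before ARHGAP11B and a part beyond FMN1 that differed. Before ARHGAP11B shRBBP4 had 38 regions, 30 of them without shNT overlap (78.9%) and 7 above percentile 90. There shNT had 12 regions with none above percentile 90. Strong shRBBP4 regions without an shNT region within 1 kb were those from 29562152 to 29562840 and from 29561307 to 29561606, at percentiles 96.4 and 95.3, and that from 28566564 to 28566767 at percentile 94.5. Beyond FMN1 shRBBP4 had 13 regions, 3 of them without shNT overlap (23.1%) and none above percentile 90, and shNT had 16, with 2 above percentile 90. Over the whole lists, 49.96% of shRBBP4 and 23.0% of shNT regions had no overlap, and 9.75% and 10.1% stood above percentile 90. Of the 6 shNT regions of the window that overlapped no shRBBP4 region, 5 lay beyond FMN1, led by that from 34660550 to 34660713 at percentile 62.8. The other, before ARHGAP11B from 29065115 to 29065237, stood at percentile 51.2. A pair of equal rank, from 34874860 to 34874983 and from 34875115 to 34875237, came next at percentile 37.7.

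Region numbers changed across a gap after FMN1. The last shRBBP4 region before it ran from 33571811 to 33572101 and the last shNT region from 33493811 to 33494034. No region of either list followed for 758 kb. Longer stretches without regions lay earlier in the window, of 2.23 Mb from 26333112 to 28565894 and of 801 kb from 30115151 to 30916583, so the length of the gap does not set it apart. The next were an shRBBP4 region from 34330249 to 34330551 and an shNT region from 34392804 to 34393302. RefSeq order places RYR3, AVEN, CHRM5, EMC7 and PGBD4 after FMN1. From 25 Mb to the gap there were 135 shRBBP4 against 29 shNT regions, or 4.66 times as many (exact 95% interval 3.10 to 7.21, counting error only). From the gap to 35 Mb there were 12 shRBBP4 against 16 shNT regions, a ratio of 0.750 (0.324 to 1.69). From 35 to 40 Mb there were again more in shRBBP4, 64 against 30 in shNT, a ratio of 2.13 (1.36 to 3.41), with 35 shRBBP4 against 11 shNT regions in the last 1 Mb of it. Regions above percentile 90 numbered 26 in shRBBP4 and 1 in shNT before the gap, and 0 and 2 from the gap to 35 Mb. Of the whole lists, 9.75% of shRBBP4 and 10.1% of shNT regions stood above it.

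Within the window, clusters present in both libraries were ranked differently on the 2 sides of this gap. Neighbouring regions of either list that lay within 1 kb were put in 1 cluster, and each cluster was given the best percentile of each library. From 25 Mb to the gap the best percentile was higher in shRBBP4 in 14 of 15 such clusters, with a median of 94.4 in shRBBP4 and 51.2 in shNT. From the gap to 35 Mb it was higher in shRBBP4 in 2 of 6, with a median of 68.3 in shRBBP4 and 76.8 in shNT. Beyond the window, from 35 to 40 Mb, it was higher in shRBBP4 in 7 of 11, with a median difference of 2.40 points. Over all chromosomes it was higher in shRBBP4 in 63.6% of 10454 clusters, with a median difference of 4.56 points. At the 9 clusters from ARHGAP11B to FMN1 it was higher in shRBBP4 in all 9, by 9.64 to 84.3 points. The clusters were regrouped at a gap found in the same lists, so these counts describe the stretch and carry no test.

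**Figure D4:**
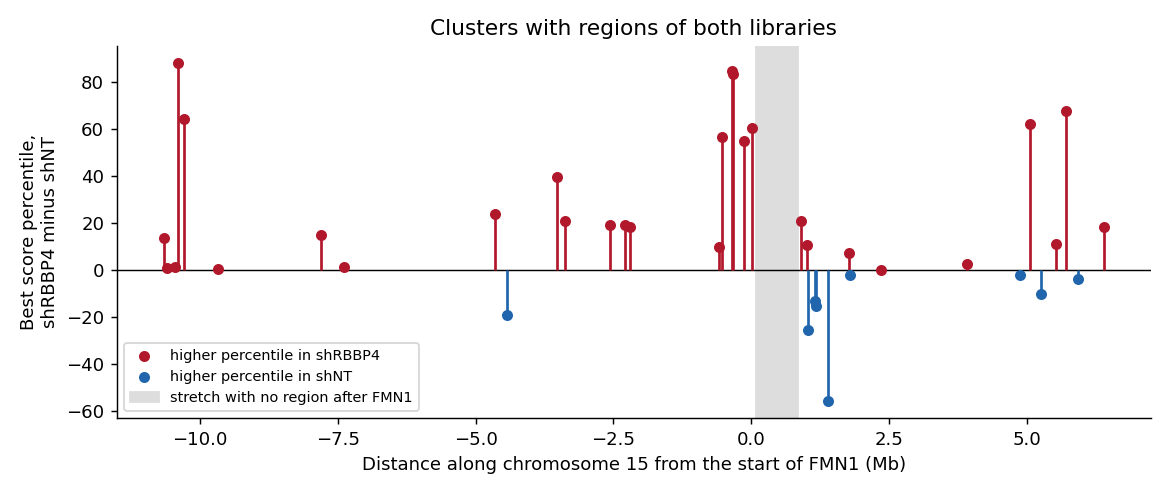
Best score percentile in shRBBP4 minus that in shNT (points) for each cluster with regions of both libraries in the first 40 Mb of chromosome 15, by distance in Mb from the start of FMN1. The grey band is the 758-kb gap without regions; 14 of 15 clusters of the window before it lie above 0, and 2 of 6 after it within the window do.

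Toward the start of the chromosome the clusters of both libraries kept the higher percentile in shRBBP4. The ratio of region numbers was lower there than the 4.66 (3.10 to 7.21) from 25 Mb to the gap, though the intervals overlapped. The first regions inside the window began at 25682196 in shRBBP4 and at 25682278 in shNT, and the last before it ended at 23812280 in shRBBP4 and at 23812429 in shNT. Before 25 Mb there were 22 shRBBP4 against 11 shNT regions, 2 times as many (0.930 to 4.57), and the first called region of the chromosome began at 22549310 in shRBBP4 and at 22833509 in shNT. The 6 clusters of both libraries there all had the higher percentile in shRBBP4, by 0.603 to 88.0 points. At the other boundary of the window, the last regions inside ended at 34874809 in shRBBP4 and at 34880619 in shNT, and the first after it began at 35261239 in shRBBP4 and at 35260841 in shNT. For a sum, each shRBBP4 region counted 1 and each shNT region minus 2 times the ratio of the lists. The segment of chromosome 15 with the highest sum ran from 26108700 to 34392869 and counted 131 shRBBP4 and 23 shNT regions. An shNT region from 34392804 to 34393302 lies across its end and was not counted. This segment was the highest of those found in the same way on 23 chromosomes, with a sum of 63.6 against 37.8 for the next, on chromosome 5. These limits moved with the weight and the unit counted. With a weight of 3 times the ratio the segment ran from 32974614 to 33361012, which is the interval from before GREM1 to inside FMN1. It counted 61 shRBBP4 and 2 shNT regions, and left out an shNT region from 33360315 to 33360445, inside its last shRBBP4 region.

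The uninterrupted series with the most shRBBP4 regions ended inside FMN1. From 32974614 to 33122316, 27 shRBBP4 regions in 9 clusters covered 7.48 kb with no shNT region between them, and GREM1 lies within this stretch. Of 3586 such series over the genome it held the most regions and covered the most bases, and by number of clusters it shared rank 10. The next by regions, on chromosome 1 from 182998531 to 183249862, held 23. A further series of 9 clusters, with 12 regions, ran from 31316219 to 32827186 and was longer in span, 1511 kb against 148 kb.

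Among windows of 10 Mb along the genome, the window stood near the top by number and first by covered length. Its 147 shRBBP4 regions against 45 in shNT gave a ratio of 3.27 (2.32 to 4.67), set beside 1.46 (1.44 to 1.49) for the whole lists and 1.49 (1.36 to 1.62) for chromosome 15 outside it. The interval covers counting error only and is too narrow, since the window was picked for its counts. Of 558 overlapping windows with at least 40 regions it had the third highest ratio, after chromosome 14 from 75 to 85 Mb with 107 shRBBP4 and 32 shNT regions (3.34) and chromosome 10 from 0 to 10 Mb with 135 shRBBP4 and 41 shNT regions (3.29). Ratios of at least 2 times that of the lists were found in 4 windows (0.717%). Its regions covered 57.3 kb in shRBBP4 against 11.0 kb in shNT, and this ratio of 5.19 was the highest of the 558, against 3.90 for the next. The share of shRBBP4 regions above percentile 90 was 17.7% (11.9 to 24.8, exact Clopper-Pearson), rank 25 of the 558, while it was 4.67% and 6.67% in the windows on chromosomes 14 and 10.

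**Figure D5:**
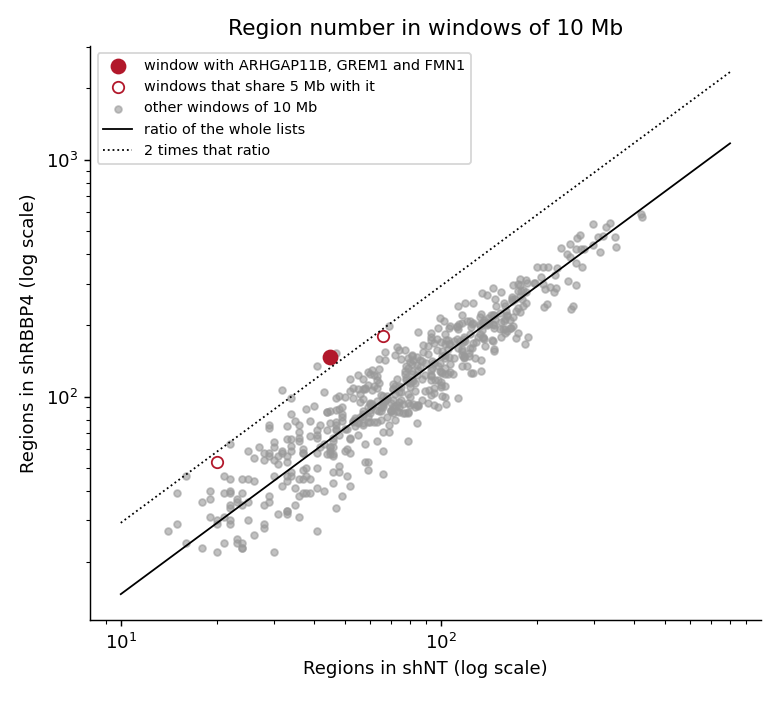
Regions in shRBBP4 against regions in shNT (both log scale) in 558 windows of 10 Mb that start every 5 Mb; each point is 1 window. The window with ARHGAP11B, GREM1 and FMN1 (147 in shRBBP4 and 45 in shNT) lies above the dotted line of 2 times the list ratio, as do 3 others, and the 2 windows that share 5 Mb with it lie just below that line.

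The stretch from 33 to 34 Mb supplied much of the excess. There, 57 shRBBP4 regions stood against 4 in shNT, a difference of 53 that was the second largest of 2293 windows of 1 Mb. Without it 90 shRBBP4 against 41 shNT regions were left, a ratio of 2.20 (1.501 to 3.26). From 31 to 32 Mb there were 15 in shRBBP4 and 4 in shNT, from 32 to 33 Mb 20 and 6, and from 29 to 30 Mb 14 and 2. From 25 to 26 Mb both lists had 4 regions. Over the whole window, 96 of 147 shRBBP4 regions had no shNT region within 1 kb (65.3%), and 1 of 45 shNT regions had no shRBBP4 region within 1 kb, where the lists as a whole gave 25.7% and 6.24%.

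Regions of the window were also wider and more often grouped in shRBBP4 than in its list as a whole. Their median width was 253 bp, against 213 bp in the list, while that of the shNT regions was 201 bp, against 210 bp. Regions wider than 1 kb made up 10 of 147 (6.80%) in shRBBP4, against 2.62% of the list, and 0 of 45 in shNT, against 2.14%. Of 66 clusters of both lists together, 44 held shRBBP4 regions only, 1 held shNT regions only and 21 held both. Of the 44, 20 held more than 1 region (45.5%), against 28.7% of such clusters in all. Width and number of called regions come from the same 2 lists as the rule, so they are descriptions. Copy number and sequencing depth of these cells were not analysed here, and differences in either cannot be told apart from differences in acetylation.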

How the data were processed

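The deposited file of each H3K9ac library lists called regions with a position and a score, which the authors' caller assigned and whose scale is unstated. The words macs2 and PE stand in the track line, per the file headers. BWA, SICER, Picard and bcl2fastq 2.15.0 and the builds hg19 and GRCh37 are listed with no roles, per the submitters' processing notes, so which caller made the lists was not settled. Threshold, depth and use of the input are not stated there.

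Regions were ranked by score within their own list and called overlapping from 1 bp, and clusters join regions up to 1 kb apart. Positions of the 3 genes came with the choice of members, and other genes were ordered by RefSeq only. Intervals are exact, at 95%, and cover counting error only, although regions are not independent. Named are the 3 genes, their neighbours and the strongest regions without overlap (the top 10 in shRBBP4, the top 3 in shNT). Members and lists were chosen with earlier results of these data known. With 1 library per group no test across groups was run. The overlap and segment functions were tested on simulated data. The alternatives were other overlap rules, score limits, equal list lengths, margins, windows and segment weights. The software was Python 3.11.15 with scipy 1.17.1, pandas 2.3.3, numpy 2.4.6 and matplotlib 3.10.9.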

Additional observations from a re-analysis of the deposited data

How the results depend on the processing

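No paired analysis was possible because only 1 H3K9ac list per shRNA was analysed. The ratio of shRBBP4 to shNT regions in the window, 3.27, was 5.19 by covered length and 2.20 without 33 to 34 Mb, a stretch left out after seeing the data, and lay between 2.38 and 4.15 in clusters, in lists of equal length and in the higher-scoring 50% of each list. The share of shRBBP4 regions without an shNT counterpart, 78.9%, was 65.3% within 1 kb, 69.9% in the higher-scoring 50% and 80.3% with an overlap of at least 50% of the shorter region. The whole shRBBP4 list gave 49.96% from 1 bp and 25.7% within 1 kb. List shares under the other rules are not given here, so 69.9% and 80.3% have no list value beside them. The window's rank, 3, was 1 in lists of equal length and by covered length and 2 in clusters, and its windows of 5 Mb from 25 and 30 Mb ranked 5 and 8. The segment's limits, 26108700 and 34392869, were 22549310 and 60686836 with a weight of 1 times the list ratio, 32974614 and 33361012 with 3 times, and 31316219 and 33361012 in clusters. What causes these shifts was not tested. The 61 shRBBP4 regions at the 3 genes were 54 with no margin and 72 with 50 kb. Unknown depth limits every count. The joining across 5 kb and the split at the gap were also chosen after seeing the data.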
